A study of Homo sapiens with 24 samples.

Results

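Depletion of PKCδ was followed here as a difference between responses. In each of 4 non-small cell lung cancer (NSCLC) lines with mutant K-ras, cells that stably express the PKCδ shRNA δ193 were compared with cells that express a scrambled shRNA, δscr. The mean change in the K-ras dependent lines H2009 and H441 was then set against the mean change in the K-ras independent lines A549 and H460. All 24 arrays of the series entered this contrast, 3 with δ193 and 3 with δscr in each line, and 18417 genes were tested. K-ras dependence is the study's term for lines that need K-ras to survive. The sample labels name the line and mark each sample as knock-down or Scrambled. The shRNA δ193, its target PKCδ and the class of each line were taken from the study. All groups carry an shRNA, δ193 is the single PKCδ shRNA used, and each class is represented by 2 lines, so class and cell line cannot be told apart beyond the agreement of those lines.

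PKCδ is a serine/threonine kinase of the PKC family. It is activated by the membrane lipid diacylglycerol, without the calcium that the conventional PKCs need, and it is known both as a mediator of apoptosis and as a promoter of growth in some tumors. K-ras signals to the kinase ERK, and integrins, the receptors that hold cells to the extracellular matrix, signal to the same kinase. Phorbol esters, which mimic diacylglycerol, act on many genes through the AP-1 transcription factors, dimers of Fos and Jun proteins.

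The arrays were checked against their labels before the responses were compared. Array medians lay between 4.78 and 4.91 on the log2 scale. Replicates correlated across genes at 0.9942 or more, except in H441, where the lowest correlation was 0.9819 with δ193 and 0.9918 with δscr. The epithelial keratins KRT7, KRT8 and KRT18 lay at 10.9 or more in all 8 groups. NKX2-1, a transcription factor of lung epithelium, did not exceed 5.55 in any group mean, and SFTPB, a surfactant protein, did not exceed 4.22, below the median gene mean of 5.79. EPCAM and CDH1, which mark epithelial cells, averaged 11.2 and 11.23 in H2009 cells with δscr, against 5.89 and 6.41 in the H441 arrays, 4.71 and 8.73 in A549, and 5.45 and 5.6 in H460. Of 15 immune markers, CD14 in A549 cells with δscr (6.11) was the 1 above that median. Of 14 fibroblast or endothelial markers, 1 or 2 lay above it in each group, and COL1A1 was the highest (6.03 to 6.7). In δscr cells the arrays labelled H441 were closest to those labelled H460 (r = 0.966 across genes), and 21 genes lay apart by 3 or more on the log2 scale, where the other 5 pairs of lines had 109 to 235 such genes. Whether these arrays hold the line that their labels name was not tested, so results that those arrays decide are also given without them. The fit without them sets H2009 alone against the mean of A549 and H460, so it is not a comparison of classes of 2 lines. It called 1365 of all genes (7.41%), 828 higher and 537 lower. Of these, 504 were also called with all arrays.

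PRKCD, the gene that encodes PKCδ, checks the labels. It was called lower with δ193 in every line, and its class contrast did not pass the test (-0.68 ± 0.20, standard error, adjusted p = 0.0516 by limma). Without the H441 arrays the contrast was -0.61 (adjusted p = 0.00482). The smallest decrease was in A549, with a log2 change of -1.26, while the changes were -2.25 in H2009, -2.40 in H441 and -2.03 in H460. Its part in the class differences described here was not tested.

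The class contrast called 857 of 18417 genes (4.65%) with an adjusted p below 0.05 and a log2 difference of at least 0.32 in size, the fold limit of the study’s methods. The change was higher in the dependent lines for 485 (2.63%) and lower for 372 (2.02%). Lines of the same class also differed. The change of 1311 genes (7.12%) differed between H2009 and H441, and that of 853 (4.63%) between A549 and H460. Within H2009, 904 genes passed (4.91%), with 2.66% of all genes higher and 2.25% lower with δ193. H441 had 2636 (14.3%, with 7.09% higher and 7.22% lower), A549 had 852 (4.63%, with 2.05% and 2.58%) and H460 had 1003 (5.45%, with 2.01% and 3.44%). Replicates spread more in H441 (median SD 0.184) than in H2009 (0.117), A549 (0.115) or H460 (0.092), while the fit gives all lines 1 estimate of each gene's spread. These counts depend on that choice. With array weights per line, H441 had 958 and H460 had 1699. The differences within a class were then 565 (H2009 and H441) and 1865 (A549 and H460). The p-values measure the spread between replicate arrays of these 4 lines. When each line's change was taken as 1 value and 2 lines were compared with 2, no gene passed (smallest adjusted p = 0.985 by limma), and 716 genes had an unadjusted p under 0.05, where 921 are expected if no gene differs. The calls of the contrast are therefore differences between these 4 lines.

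**Figure D1:**
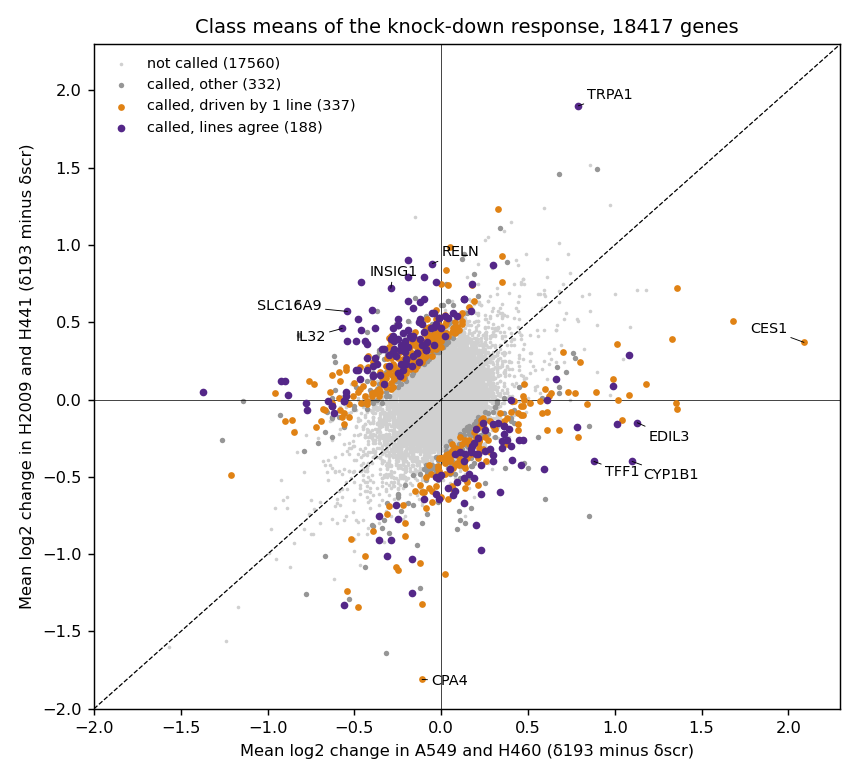
Mean log2 change (δ193 minus δscr) of 18417 genes in A549 and H460, horizontal axis, and in H2009 and H441, vertical axis, with the dashed line marking equal change. Purple points are the 188 called genes whose lines agree, orange points the 337 driven by 1 line, dark grey points the other called genes, and light grey points genes not called. TRPA1 lies at 0.79 and 1.90, and CYP1B1 at 1.10 and -0.40.

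To separate a shared class response from that of 1 line, the called genes were sorted by what their contrast rests on. In 188 genes the lines agreed: each of the 4 differences between a dependent and an independent line had the sign of the contrast and a size of at least 0.32. They made up 1.02% of the genes tested, with 116 higher (0.63%) and 72 lower (0.391%) in the dependent lines. In 337 genes (1.83%) the contrast rested on 1 line, since leaving that line out of its class mean brought it under this limit or turned its sign. That line was H441 for 110 genes (0.597%), A549 for 103 (0.559%), H2009 for 65 (0.353%) and H460 for 59 (0.32%). Of the remaining calls, 230 rested on 2 or more lines in this way, and 102 on none but had a cross-class difference under the limit. At the limit itself, DUS2 lay just inside and MRI1 just outside, both with a smallest difference of 0.32.

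**Figure D2:**
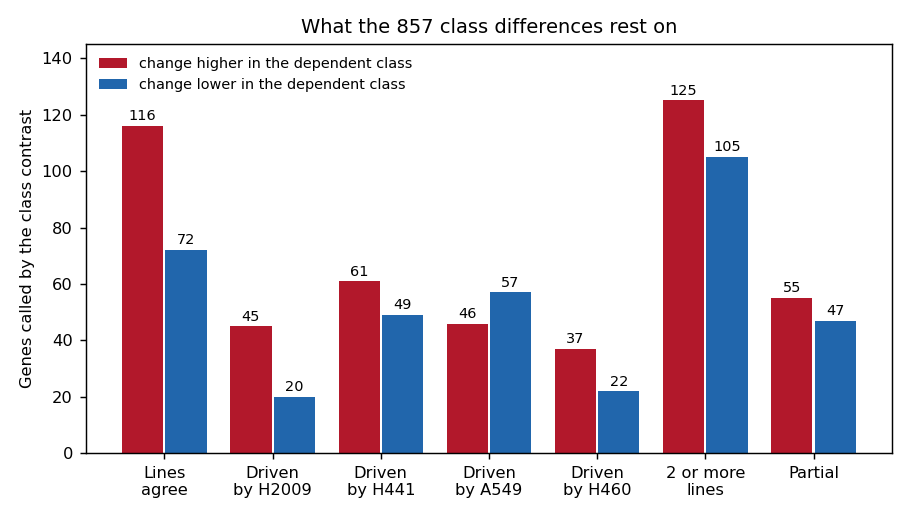
Number of genes called by the class contrast, vertical axis, by what the contrast rests on, with changes higher in the dependent class in red and lower in blue. Lines agree for 116 and 72 genes, while H441 drives 61 and 49 and A549 drives 46 and 57.

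Among the 188 genes, most did not have a called change in both classes. At least 1 line was called in each class for 16 of the 116 higher and 12 of the 72 lower genes, and no line was called for 22 and 10. By sign alone, with no test and in genes chosen for a difference between the classes, the dependent and independent lines lay on opposite sides of 0 in 81 of the 116 and 44 of the 72. All 4 changes went in the direction of the contrast, and differed in size, in 9 and 9 genes. The mean change was the larger one in the dependent lines for 76 of the 116 and 44 of the 72. The median contrast was 0.59 for the higher and -0.62 for the lower genes. In a stricter count, where each of the 4 differences was itself called, 27 genes were left, 17 higher and 10 lower. Leaving out 1 line made its class a single line. In such fits 120 of the 188 genes were still called without H2009, 163 without H441, 95 without A549 and 100 without H460. By the definition of agreement, the sign could not turn in those fits, nor the size fall under the limit. Only the adjusted p could lose a call. Of the 20 genes described next, which were chosen by the smallest of the 4 differences, 18, 20, 19 and 17 kept their call in those fits.

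INSIG1 had the largest smallest difference between the classes among the higher genes. It encodes a sterol-sensing protein that holds the SREBP transcription factors in the endoplasmic reticulum and marks HMG-CoA reductase for degradation. In H2009 its log2 values were 8.41, 8.22 and 8.34 with δ193, against 7.62, 7.70 and 7.48 with δscr. In H441 they were 8.32, 7.65 and 8.48 with δ193, against 7.61, 7.42 and 7.27 with δscr. Every δ193 array lay above every δscr array in both dependent lines. In A549 the values were 6.68, 6.56 and 6.46 with δ193, against 7.10, 6.86 and 6.89 with δscr. In H460 they were 7.29, 7.37 and 7.20 with δ193, against 7.62, 7.40 and 7.44 with δscr. Here the δ193 values were all under the δscr values, although neither decrease was called on its own. The changes of 0.72 and 0.71 in the dependent and -0.38 and -0.20 in the independent lines gave a contrast of 1.01 ± 0.15 (standard error, adjusted p = 0.000178 by limma).

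IL32, a proinflammatory cytokine that is induced by NF-κB, showed the same order. In H2009 it read 7.74, 7.58 and 7.63 with δ193, against 7.44, 7.22 and 7.03 with δscr. In H441 it read 7.43, 7.26 and 7.40 with δ193, against 6.76, 7.10 and 6.71 with δscr. The groups did not overlap in either line, and both increases were called. In A549 the values with δ193, 6.46, 6.04 and 6.27, lay below those with δscr, 7.38, 7.08 and 7.23, a called decrease of 0.98. In H460 they were 7.86, 7.80 and 7.76 with δ193, against 7.93, 8.05 and 7.94 with δscr, also without overlap but by 0.17 only. The IL32 contrast was 1.04 (95% confidence interval 0.79 to 1.28, adjusted p = 1.02e-05). Its changes in A549 and H460 also differed from each other (A549 minus H460 -0.8, adjusted p = 0.00467 by limma).

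TRPA1 differed in the size of an increase. This calcium-permeable channel, opened by reactive chemicals, read 7.10, 6.84 and 6.76 with δ193 in H2009, against 5.13, 4.85 and 4.98 with δscr. In H441 the values were 6.10, 5.82 and 5.69 with δ193, against 3.81, 3.74 and 4.41 with δscr. In H460 they were 6.38, 6.48 and 6.29 with δ193, against 5.04, 5.33 and 5.43 with δscr. All 3 lines had a called increase with no overlap between groups. In A549 the values with δ193, 5.96, 5.90 and 5.74, overlapped those with δscr, 5.97, 5.19 and 5.05. The contrast was 1.11 (95% confidence interval 0.72 to 1.5, adjusted p = 0.001).

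RELN, which encodes the matrix glycoprotein reelin, rose in the dependent lines, by 0.71 in H2009 and 1.05 in H441, while its changes in A549 and H460 were -0.23 and 0.13 and were not called (contrast 0.93, adjusted p = 1.05e-05). In A549 it lay at 3.92 ± 0.09 with δ193 and 4.16 ± 0.03 with δscr (SD, n = 3), the lowest level of the 4 lines, and the A549 level did not exceed 4.18 on any array. The study chose RELN on these samples as a gene of the dependent class, so its direction there is not independent evidence. SLC16A9, a carrier of the monocarboxylate family, changed by 0.52 and 0.62 in H2009 and H441 and by -0.70 and -0.38 in A549 and H460 (contrast 1.11, adjusted p = 0.00123). PTPN13, a protein tyrosine phosphatase, had a contrast of 0.91, DIAPH2, an actin-nucleating formin, of 0.83 and HMGN5, a nucleosome-binding protein, of 0.73, with a largest adjusted p of 0.000566. Of these 3, DIAPH2 and HMGN5 were called higher in both dependent lines, and PTPN13 in H2009. AMZ2P1 (0.98) and RNU5A-1 (1.01) complete the 10, but AMZ2P1 is a pseudogene related to AMZ2 and RNU5A-1 a small nuclear RNA with near-identical copies, so their probes may read other loci. The call of RNU5A-1 was lost without the H460 arrays (0.80, adjusted p = 0.118).

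**Figure D3:**
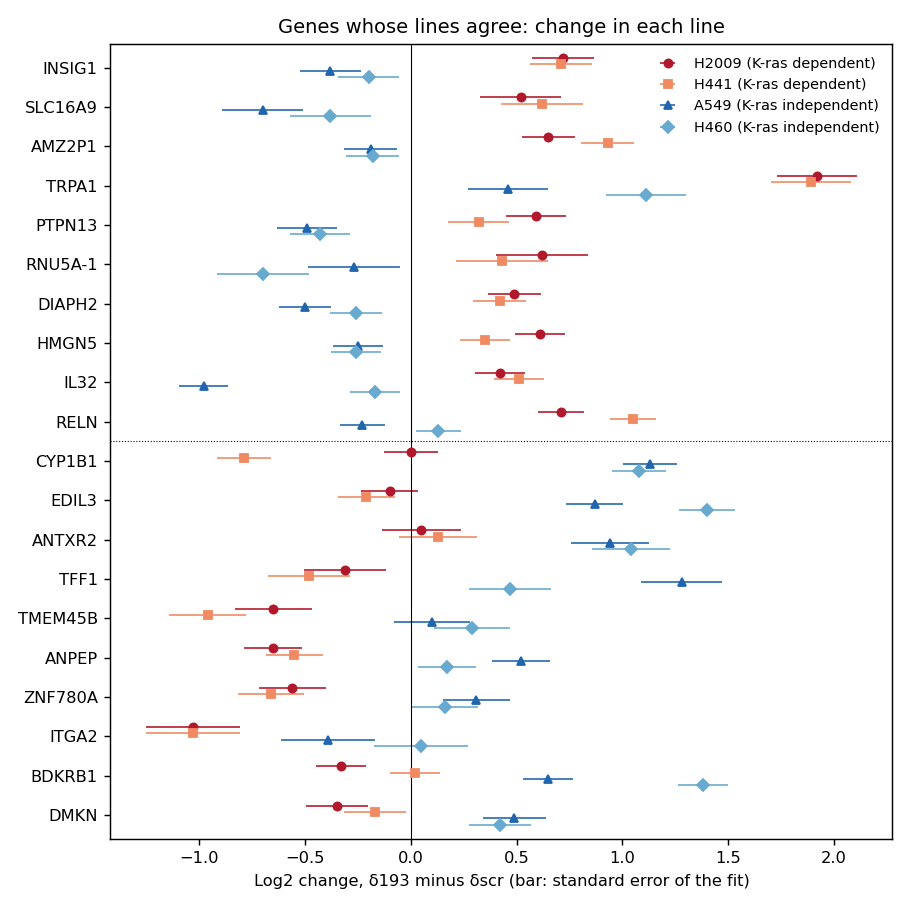
Log2 change (δ193 minus δscr, horizontal axis) in each line for genes whose lines agree, the 10 in each direction with the largest smallest cross-class difference. Genes higher in the dependent lines are above the dotted line and lower ones below it. Points are fitted changes with their standard errors, H2009 and H441 in red and orange and A549 and H460 in dark and light blue; for INSIG1 the dependent lines lie at 0.72 and 0.71 and the independent ones at -0.38 and -0.20.

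In the other direction, CYP1B1 had the largest contrast of the 188 genes. It encodes a cytochrome P450 that oxidizes aromatic hydrocarbons and estradiol and is induced through the aryl hydrocarbon receptor. In H2009 its values were 7.72, 7.62 and 7.53 with δ193, against 7.73, 7.65 and 7.50 with δscr. In H441 they were 8.53, 8.78 and 8.16 with δ193, against 9.40, 9.38 and 9.07 with δscr. The H2009 groups overlapped, and CYP1B1 fell by 0.79 in H441. In A549 the values were 10.02, 10.06 and 9.82 with δ193, against 8.80, 8.88 and 8.84 with δscr. In H460 they were 8.49, 8.45 and 8.39 with δ193, against 7.15, 7.45 and 7.49 with δscr. Both independent lines had increases of more than 1 on the log2 scale with no overlap. The contrast was -1.5 (95% confidence interval -1.76 to -1.24, adjusted p = 1.81e-07) and -1.10 without the H441 arrays. H2009 and H441 also differed from each other, by 0.79 (adjusted p = 0.0082). Of the 9 measured targets of the aryl hydrocarbon receptor, CYP1B1 and ALDH3A1 were called lower (22.2%, against 4.65% of all genes), and ALDH3A1 (-0.37) lost its call and turned to 0.06 without the H441 arrays. In that fit 1 of the 9 was called higher and 3 lower (44.4%, against 7.41% of all genes).

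EDIL3, a secreted ligand of αV integrins, followed the same pattern. In A549 it read 4.70, 4.43 and 4.35 with δ193, against 3.53, 3.71 and 3.63 with δscr. In H460 it read 7.71, 7.81 and 7.61 with δ193, against 6.22, 6.41 and 6.31 with δscr. The groups were apart in both lines, and the increases of 0.87 and 1.4 were called. In H2009 it read 9.51, 9.54 and 9.59 with δ193, against 9.71, 9.67 and 9.55 with δscr. In H441 it read 7.34, 7.56 and 6.79 with δ193, against 7.55, 7.49 and 7.30 with δscr. These groups overlapped, and the contrast was -1.29 (95% confidence interval -1.56 to -1.01, adjusted p = 3.72e-06).

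Genes with this pattern in both independent lines also included ANTXR2, a receptor for collagen VI and anthrax toxin (0.94 in A549 and 1.04 in H460, against 0.05 in H2009 and 0.13 in H441), and BDKRB1, the bradykinin B1 receptor (contrast -1.17, adjusted p = 2.6e-06). BDKRB1 rose more in H460 than in A549, by 1.38 against 0.65 (adjusted p of that difference = 0.0108). Other genes fell in the dependent lines instead. ANPEP, the aminopeptidase N, fell by 0.65 in H2009 and 0.55 in H441 and rose by 0.52 in A549. TMEM45B fell by 0.65 and 0.96 and the zinc finger gene ZNF780A by 0.56 and 0.66, with no call in A549 or H460. With δscr TMEM45B averaged 3.96 in A549 and 3.97 in H460, levels at which a fall may not show. TFF1, a secreted trefoil peptide, had its 1 called change in A549, an increase of 1.28, and DMKN, the epidermal protein dermokine, had none, yet both passed the contrast (-1.27 and -0.71, adjusted p = 0.0003 and 0.00544). The call of DMKN was lost without the H2009 arrays (-0.62, adjusted p = 0.0646), and that of ANTXR2 without the H460 arrays (-0.85, adjusted p = 0.0694). No single array decided a call among these 20 genes.

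**Figure D4:**
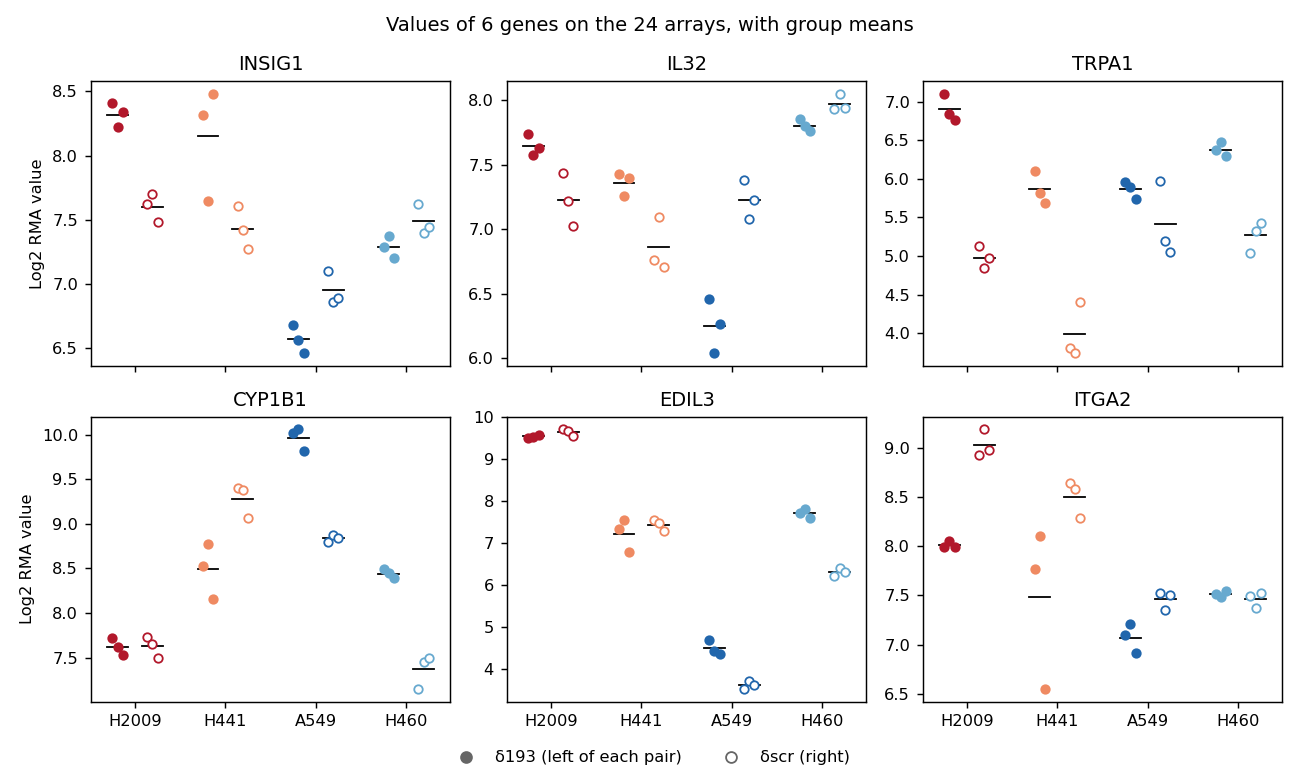
Log2 RMA values of INSIG1, IL32, TRPA1, CYP1B1, EDIL3 and ITGA2 on the 24 arrays (vertical axes) by cell line (horizontal axes), with filled points for δ193 to the left, open points for δscr to the right, and bars for group means. INSIG1 is higher with δ193 in H2009 and H441 and lower in A549 and H460, and EDIL3 differs between the shRNAs in A549 and H460.

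Promoters of the 188 genes were searched on both strands for TGANTCA, which reads the same on each, N being any base. This pattern covers the AP-1 site, the phorbol ester response element, but is looser than it. A match such as TGATTCA in FOXP1 was counted too. RefSeq windows of 250 bases before to 50 after the start were matched by symbol for 87 of the 116 higher genes and 55 of the 72 lower genes. The pattern was present in 6 (6.9%) of the higher and 5 (9.09%) of the lower genes, against 8.0% of the 14239 tested genes with such a window. Below are 4 of these windows, chosen after their values were seen because the gene is described here or had all 4 cross-class differences called, with the site in capitals (RefSeq, GRCh38.p14, 5′ to 3′ along the gene). ACSL1, a long-chain acyl-CoA synthetase with a contrast of 0.99, is at chr4:184812202-184812501 on the minus strand. DMKN is at chr19:35513600-35513899 on the minus strand. SGMS2, a sphingomyelin synthase with a contrast of -0.80, is at chr4:107824682-107824981 on the plus strand. SLC4A4, a sodium bicarbonate cotransporter with a contrast of -0.80, is at chr4:71235810-71236109 on the plus strand.
ACSL1: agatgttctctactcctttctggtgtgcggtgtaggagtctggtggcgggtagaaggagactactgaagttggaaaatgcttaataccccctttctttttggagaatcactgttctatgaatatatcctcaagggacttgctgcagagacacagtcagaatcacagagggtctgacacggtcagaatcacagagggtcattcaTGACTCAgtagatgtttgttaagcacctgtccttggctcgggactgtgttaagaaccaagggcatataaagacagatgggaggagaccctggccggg
DMKN: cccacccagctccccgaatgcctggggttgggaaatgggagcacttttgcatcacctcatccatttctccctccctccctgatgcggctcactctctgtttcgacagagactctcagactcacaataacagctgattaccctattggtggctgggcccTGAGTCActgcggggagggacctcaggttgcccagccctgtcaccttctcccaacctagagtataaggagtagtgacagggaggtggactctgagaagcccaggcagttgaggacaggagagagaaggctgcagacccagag
SGMS2: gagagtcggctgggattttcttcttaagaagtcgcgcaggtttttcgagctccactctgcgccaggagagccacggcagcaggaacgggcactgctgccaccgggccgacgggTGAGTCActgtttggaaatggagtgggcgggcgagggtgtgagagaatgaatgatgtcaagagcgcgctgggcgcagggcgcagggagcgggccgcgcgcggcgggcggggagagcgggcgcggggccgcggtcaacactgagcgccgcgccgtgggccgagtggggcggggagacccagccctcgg
SLC4A4: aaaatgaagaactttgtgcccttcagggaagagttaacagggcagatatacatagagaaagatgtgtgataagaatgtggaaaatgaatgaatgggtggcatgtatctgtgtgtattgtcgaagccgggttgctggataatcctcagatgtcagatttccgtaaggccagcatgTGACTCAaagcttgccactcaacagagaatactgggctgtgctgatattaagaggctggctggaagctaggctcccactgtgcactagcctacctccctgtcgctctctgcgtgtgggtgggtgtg
The genes whose promoters share this site moved in both directions. ACSL1 read 6.74, 6.47 and 6.52 with δ193 in H2009, against 5.72, 5.61 and 5.63 with δscr, and 6.25, 5.88 and 6.02 with δ193 in A549, against 6.72, 6.40 and 6.50 with δscr. SLC4A4 read 8.06, 8.19 and 7.99 with δ193 in A549, against 6.71, 6.75 and 7.13 with δscr, and 4.72, 4.98 and 4.74 with δ193 in H2009, against 4.46, 4.48 and 4.28 with δscr. The groups did not overlap in these 4 comparisons.

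Integrin genes were of interest because the study follows integrin αVβ3 in the dependent cells. Of 25 measured integrin subunits, 1 had a higher and 4 a lower change in the dependent lines (20.0% called, against 4.65% of all genes), with a median contrast of -0.15 against 0 for all genes. ITGA2, the collagen-binding α2 subunit, read 7.99, 8.05 and 7.99 with δ193 in H2009, against 8.93, 9.19 and 8.98 with δscr. In H441 it read 7.77, 8.11 and 6.55 with δ193, against 8.64, 8.58 and 8.29 with δscr. Both changes were -1.03 and were called, with no overlap. In A549 it read 7.10, 7.21 and 6.91 with δ193, against 7.53, 7.35 and 7.50 with δscr, and in H460 it read 7.51, 7.48 and 7.55 with δ193, against 7.49, 7.37 and 7.52 with δscr. The A549 groups did not overlap either, although that change of -0.39 was not called. The contrast of ITGA2 was -0.86 (adjusted p = 0.0244), and -0.86 without H441 (adjusted p = 5.87e-05). Its call was lost without H2009 (-0.86, adjusted p = 0.0921), A549 (-1.08, adjusted p = 0.0589) or H460 (-0.64, adjusted p = 0.318).

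ITGA6, a laminin-binding subunit, had a contrast of -0.62 (adjusted p = 0.000725), with changes of -0.33 and -0.73 in H2009 and H441 and 0.04 and 0.14 in A549 and H460. ITGA4, which binds fibronectin and VCAM1, went the other way, with changes of 0.57 and 0.30 in the dependent lines and -0.08 and -0.13 in the independent ones (contrast 0.54, adjusted p = 0.0133), and it missed the threshold at 0.40 without H2009, 0.57 without A549 and 0.51 without H460 (largest adjusted p = 0.118). For both the lines agreed. ITGB4, the partner of α6 in hemidesmosomes, was called lower in H441 alone (-0.99), and its contrast was -0.19 without those arrays. ITGAV, the αV subunit, fell in H2009, H441 and H460, by 0.43, 0.80 and 0.44, and changed by -0.07 in A549. Its contrast of -0.36 was called (adjusted p = 0.0117), but it rested on more than 1 line and was -0.18 without H441 and -0.18 without A549. ITGB3, the β3 subunit, fell by 0.74 in H2009 and 0.85 in H441 and changed by -0.50 and -0.22 in A549 and H460, which were not called. In all 4 lines every δ193 array of ITGB3 lay below every δscr array. Its group means did not exceed 5.95, near the median gene mean of 5.79. Its class difference of -0.44 (95% confidence interval -0.79 to -0.09) did not pass the test (adjusted p = 0.155). The study chose ITGAV and ITGB3 on these samples. By qRT-PCR it also reported decreases of both in further dependent lines and with other PKCδ shRNAs. It reported less αVβ3 at the surface of dependent cells, slightly less in A549, and more of both mRNAs when PKCδ was restored. Those experiments are not part of these arrays. When the H441 arrays were left out, 3 integrin genes were called higher and 3 lower (24%, against 7.41% of all genes), with a median contrast of -0.01.

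Matrix ligands of these receptors moved in both directions. Of 49 measured, 3 were called higher and 5 lower (16.3%, against 4.65% of all genes). Beside RELN, the lines agreed for LAMA1, the laminin α1 chain, with changes of 0.68 and 0.28 in H2009 and H441 and -0.09 and -0.42 in A549 and H460 (contrast 0.73, adjusted p = 4.53e-05). AGRN, the heparan sulfate proteoglycan agrin, fell in H2009, H441 and A549, by 0.49, 0.76 and 0.34, and the call of its contrast, -0.37 (adjusted p = 0.0136), was lost without H441 (-0.24, adjusted p = 0.0801) or H460 (-0.29, adjusted p = 0.248). VTN, vitronectin, fell by 2.09 in H441 alone, and its contrast of -1.15 was -0.18 without H441 (adjusted p = 0.601). TNC, tenascin C, rose in H441 by 0.96 and in H460 by 2.31, where it averaged 7.66 with δ193 and 5.35 with δscr. The negative contrast of TNC (-0.64, adjusted p = 0.0378) thus stood beside increases in both classes and was 0.31 without the H460 arrays and -0.40 without the H2009 arrays (adjusted p = 0.346). Leaving out any 1 of 15 single arrays also lost its call. The H441 arrays left out, 9 matrix ligands were called higher and 2 lower (22.4%, against 7.41% of all genes).

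Lysosomal genes that passed were all lower in the dependent lines, 10 of 61 measured, with a median contrast of -0.13. That was 16.4%, against 4.65% of all genes called and 2.02% called lower. Of the 10, 6 were driven by 1 line, and the lines agreed for GALC and LAPTM5. GALC, galactosylceramidase, read 5.13, 5.20 and 4.84 with δ193 in H2009, against 6.07, 6.20 and 6.14 with δscr. In H441 it read 6.18, 6.22 and 6.10 with δ193, against 7.87, 7.69 and 7.69 with δscr. GALC also fell in A549 and H460, by 0.56 in each, so the contrast of -0.77 (adjusted p = 4.53e-05) is one of size. LAPTM5, a lysosomal membrane protein, fell by 1.71 in H2009 and 0.79 in H441, and changed by -0.30 and -0.04 in A549 and H460. With δscr LAPTM5 averaged 4.17 in A549 and 4.56 in H460, below the median gene mean of 5.79, so a fall may not show there. It read 6.35, 5.84 and 5.72 with δ193 in H2009, against 7.71, 7.65 and 7.69 with δscr, and the contrast was -1.08 (adjusted p = 0.00327). That call was lost without the H2009 arrays (-0.62, adjusted p = 0.178) or H460 (-0.95, adjusted p = 0.0598).

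SGMS2, whose promoter is shown above, makes sphingomyelin from ceramide. It fell by 0.80 in H2009 and 0.54 in H441 and changed by -0.01 and 0.28 in A549 and H460 (contrast -0.80, adjusted p = 0.000147). ASAH1, the lysosomal acid ceramidase, fell in H2009, H441 and H460, by 0.63, 0.92 and 0.47, and the call of its contrast, -0.44, was lost without H441 (-0.30, adjusted p = 0.0708) or A549 (-0.31, adjusted p = 0.229). NEU1, a sialidase, fell by 0.33 and 0.34 in H2009 and H441 and rose by 0.57 in A549, on which its contrast of -0.61 rests. The study chose GALC, SGMS2, ASAH1 and NEU1 on these samples for the dependent class, and GALC for both classes as well, which is no independent evidence of their direction. The fit without H441 called 3 lysosomal genes higher and 6 lower (14.8%, against 7.41% of all genes), with a median contrast of -0.01. In the arrays labelled H441, 27 of the 61 were called lower and 2 higher, while the counts were 7 and 0 in H2009, 4 and 7 in A549 and 7 and 2 in H460.

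Epithelial genes whose expression has been tied to K-ras dependence were also lower where they passed. Of 28 measured, 7 were called lower and 0 higher (25.0%, against 4.65% of all genes), with a median contrast of -0.24. Without the H441 arrays 8 were called lower and 1 higher (32.1%, against 7.41%), with the same median. ELF3, an epithelial ETS factor, read 6.19, 6.27 and 6.05 with δ193 in H2009, against 7.28, 7.06 and 6.97 with δscr. In H441 it read 5.86, 6.30 and 5.77 with δ193, against 7.19, 6.93 and 6.46 with δscr. The groups did not overlap, and both decreases, 0.93 and 0.88, were called. In A549 and H460 the changes of -0.25 and -0.32 were not (contrast -0.62, adjusted p = 0.0151), and ELF3 missed the threshold at -0.60 without H2009, -0.59 without A549 and -0.66 without H460 (largest adjusted p = 0.143). EPCAM changed by -0.34 and -0.36 in the dependent lines and by 0.40 and -0.01 in A549 and H460, none of them called alone (contrast -0.54, adjusted p = 0.012), and its call was lost without A549 (-0.34, adjusted p = 0.33). In H441, A549 and H460 its level was near or below the median gene.

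MAL2, a protein of apical transport, had the largest contrast of this list (-1.60, adjusted p = 0.00292). It fell by 1.29 in H441 and rose by 1.96 in A549, where 1 δscr array read 4.36 and the others 6.19 and 6.44. The call was lost without H441 (-1.07, adjusted p = 0.139) or A549 (-0.50, adjusted p = 0.126). KRT19, a keratin of simple epithelia, fell by 0.55 in H441 and rose by 1.2 in H460, and its contrast of -0.73 was 0 without the H460 arrays and -0.44 without H441 (adjusted p = 0.0761). Of 20 measured mesenchymal genes, 2 were called higher and 3 lower in the fit of all arrays and without H441 alike (25.0%, against 4.65% and 7.41% of all genes), and the lines agreed for none. SNAI1, a repressor of E-cadherin, was called higher in H441 alone, by 0.62, and its contrast of 0.53 was 0.30 without H441 (adjusted p = 0.153).

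**Figure D5:**
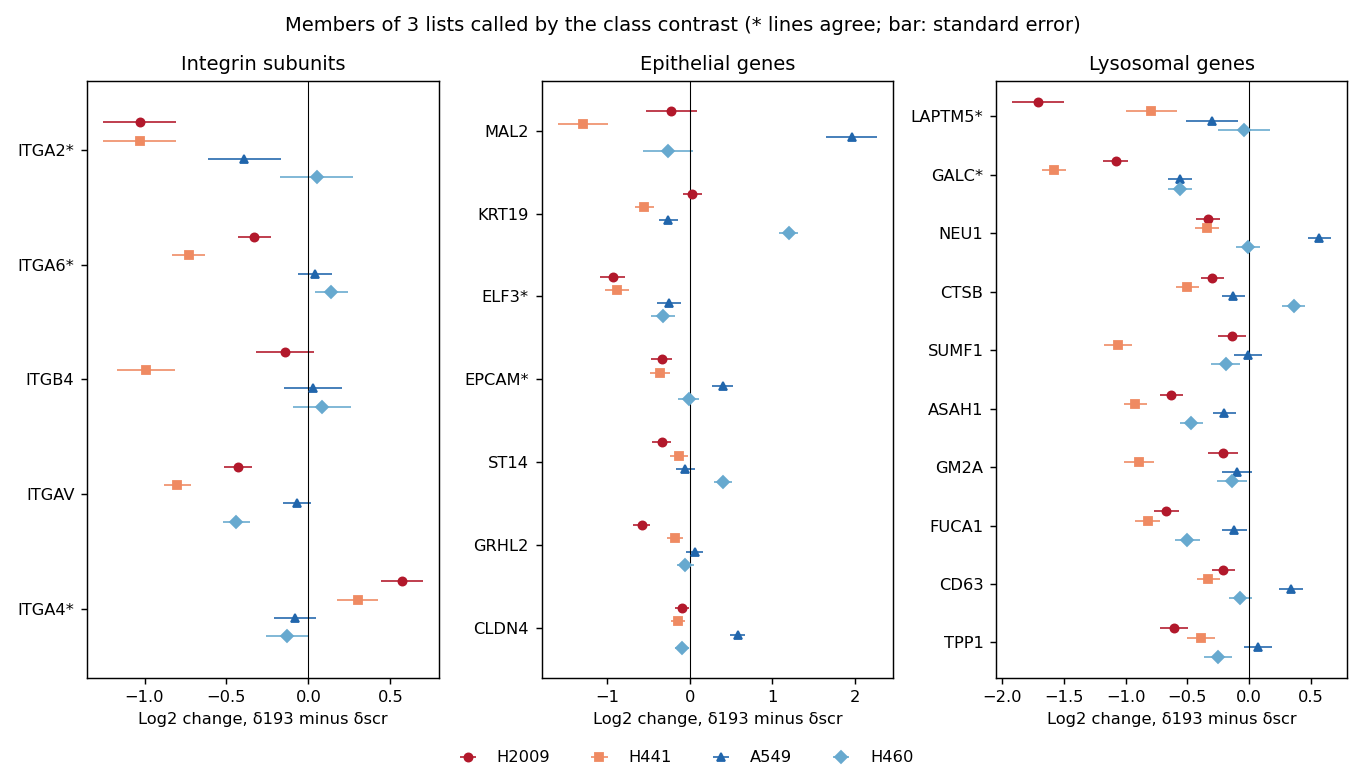
Log2 change (δ193 minus δscr, horizontal axes, with standard errors) in H2009, H441, A549 and H460 for members of 3 lists that the class contrast called: 5 integrin subunits, 7 epithelial genes and 10 lysosomal genes, with an asterisk where the lines agree. All but ITGA4 have a negative contrast, and in KRT19 (H460) and ITGB4 (H441) a single line stands apart.

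Of 30 measured genes of PKC and diacylglycerol signaling, 2 were called higher and 2 lower (13.3%, against 4.65% of all genes), with a median contrast of 0.02. Without H441 1 was called higher and 1 lower (6.67%, against 7.41%). PRKD1, a kinase that PKCs phosphorylate and activate, rose by 0.71 in H2009 and 0.59 in H441. It read 7.67, 7.75 and 7.74 with δ193 in H2009, against 7.05, 6.92 and 7.07 with δscr, and 7.43, 7.30 and 7.30 with δ193 in H441, against 6.71, 6.76 and 6.78 with δscr. In A549 and H460 its changes were 0.20 and 0.07, and the contrast was 0.52 (adjusted p = 0.000409). RASGRP1, a diacylglycerol-responsive exchange factor for Ras, had changes of 0.14 and 0.11 in H2009 and H441 and -0.55 and -0.39 in A549 and H460 (contrast 0.60, adjusted p = 0.0197), at levels no higher than 4.81 on any array. It missed the threshold at 0.58 without H2009, 0.62 without H441 and 0.68 without H460 (largest adjusted p = 0.0823).

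Of 26 immediate early genes, limma called 0 (against 4.65% of all genes), and 5 had an unadjusted p under 0.05. Of 27 genes of the stress and unfolded protein responses it called 0, and 11 had such a p. The share of all genes with such a p is not given here, so the 5 and 11 have no background to be read against. Of 26 genes that report or limit ERK activity, 1 was called higher and 2 lower (11.5%, against 4.65% of all genes). The lines agreed for SPRY1, a Sprouty inhibitor of receptor tyrosine kinase signaling, which rose by 0.37 in A549 and 0.43 in H460 and changed by 0.01 and -0.01 in H2009 and H441 (contrast -0.40, adjusted p = 0.0307). That call was lost when any 1 of 9 single arrays was left out (largest adjusted p = 0.0681). It was also lost at -0.41 without H2009, -0.43 without A549 and -0.37 without H460 (largest adjusted p = 0.194). Without the H441 arrays, where 7.41% of all genes were called, 4 of these ERK genes were called higher and 4 lower (30.8%), 1 immediate early gene higher and 3 lower (15.4%), and 4 stress response genes higher and 1 lower (18.5%).

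In cytokine and NF-κB signaling, 4 of 39 measured genes were called higher and 0 lower (10.3%, against 4.65% of all genes). The fit without H441 called 8 higher and 2 lower (25.6%, against 7.41%). IL32 was the one whose lines agreed. The chemokine CCL20 fell by 1.60 in A549 and the chemokine CCL2 fell by 1.86. Outside A549 no group mean of CCL2 exceeded 4.08, and CCL20 averaged 3.36 in H2009 and 3.30 in H460 with δscr. At such levels a fall may not show. CCL20 also rose in H441, by 1.16, and had the larger contrast (1.46, adjusted p = 0.0056, and 0.68 with an adjusted p of 0.486 without A549), while that of CCL2 rested on A549 (0.73, and -0.27 without it). TLR3, which senses double-stranded RNA, had changes of 0.27 and 0.10 in H2009 and H441 and -0.41 and -0.55 in A549 and H460 (contrast 0.67, adjusted p = 0.0018), a call lost without H460 (0.60, adjusted p = 0.0503). IL6ST, the shared receptor chain gp130, fell in all 4 lines, by 0.76 and 0.75 in H2009 and H441 and by 0.37 and 0.36 in A549 and H460. Its contrast of -0.39 (adjusted p = 0.0125) missed the threshold at -0.38 without H2009, -0.40 without A549 and -0.39 without H460 (largest adjusted p = 0.0929). LIFR, its partner in the receptor for leukemia inhibitory factor, fell by 0.93 and 0.76 in H2009 and H441 and by 0.82 and 0.75 in A549 and H460, and its class difference was -0.05 (95% confidence interval -0.32 to 0.21). The study chose TLR3, IL6ST and LIFR on these samples for the independent class, and IL6ST and LIFR for both classes as well.

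Of 53 measured genes of complement and coagulation, 1 was called higher and 8 lower (17.0%, against 4.65% of all genes). Without H441 3 were called higher and 6 lower (17.0%, against 7.41%). SERPINA1, the elastase inhibitor α1-antitrypsin, agreed between lines, with changes of -0.22 and -0.62 in H2009 and H441 and 0.82 and 0.10 in A549 and H460 (contrast -0.88, adjusted p = 0.00467), and its call was lost without A549 (-0.53, adjusted p = 0.32). BDKRB1, described above, was the other such gene of the list. In cholesterol synthesis, 3 of 18 measured genes were called higher and 1 lower (22.2%, against 4.65% of all genes), with a median contrast of 0.25. INSIG1 was the member whose lines agreed. SQLE, squalene epoxidase, was called higher in H441 alone, by 0.72, and its contrast was -0.01 without those arrays. MSMO1, a sterol methyl oxidase, fell by 0.36 in A549 and 0.44 in H460, and its contrast of 0.44 was 0.27 without H441 (adjusted p = 0.131). INSIG1 was the 1 gene of this list (5.56%, against 7.41%) called without the H441 arrays.

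Large changes in a single line also gave class contrasts, which that line decides. In A549, CES1, a carboxylesterase, rose by 4.21, reading 10.36, 10.73 and 10.95 with δ193 and 6.79, 6.35 and 6.28 with δscr, and it also rose in H2009, by 0.94. HGF, a growth factor that signals through MET, rose by 2.70 in the same line, while no array of any other group exceeded 3.46. Their contrasts were -1.72 and -1.41, and without A549 they were 0.39 and -0.07. SERPINA3, MMP7 and OLFM2 fell in A549, by 1.51, 1.42 and 1.28, with changes between -0.04 and 0.22 elsewhere. Their A549 means with δscr were 5.77, 7.31 and 8.37. Outside A549 their group means did not exceed 3.58, 3.27 and 5.72, so a fall may not show there.

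In H460, SERPINB4, a protease inhibitor of squamous epithelium, rose by 3.18, reading 8.68, 8.68 and 8.58 with δ193 and 5.28, 5.60 and 5.51 with δscr. It was also called higher in H441, by 0.78, although the groups overlapped there, and its contrast of -1.17 was 0.34 without H460. TREM1, a myeloid receptor, and CDCP1, a transmembrane substrate of Src kinases, rose in H460 by 2.10 and 1.5. GABRA5, a GABA receptor subunit, and CDH8, a cadherin, had changes of -2.21 and -1.76 in H460, both called, and positive contrasts (1.01 and 0.76). Outside H460 the group means of CDH8 did not exceed 3.96, so a fall may not show.

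In H441, CPA4, a carboxypeptidase, fell by 3.38, reading 4.53, 3.91 and 4.24 with δ193 and 7.71, 7.86 and 7.26 with δscr. Its contrast was -1.70 (adjusted p = 8.35e-06), and -0.13 without H441. TMEM45A fell by 2.32 there, and DDX60, an antiviral helicase, rose by 1.43. Without H441 their contrasts were -0.20 and 0. Outside H441 the group means of TMEM45A did not exceed 4.54, so a fall may not show. In H2009, the long non-coding RNA LOC151760 rose by 2.89, reading 7.68, 7.85 and 7.71 with δ193 and 4.82, 4.87 and 4.89 with δscr, and SPRR1B, a protein of the cornified envelope, by 1.72. CIART, a repressor of the circadian clock, fell there by 1.02. Outside H2009 the group means of CIART did not exceed 3.87, so a fall may not show. Without H2009 the contrasts of LOC151760 and SPRR1B were -0.75 and -0.08.

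AKR1B10 and AKR1C3, aldo-keto reductases that are targets of NRF2, differed between the lines of each class. AKR1B10 rose by 1.63 in H2009 and fell by 1.22 in H441 and 1.13 in H460, with 0.28 in A549. Its contrast of 0.63 passed the test (adjusted p = 0.009), while H2009 and H441 differed by 2.85 (adjusted p = 4.99e-09) and A549 and H460 by 1.41. Without H2009 the AKR1B10 contrast was -0.80, and without H441 it was 2.06. Genes called in opposite directions by the lines of 1 class numbered 67 for H2009 and H441, of which 12 were called by the contrast, and 48 for A549 and H460, of which 8 were. Genes called in the same direction in both lines numbered 255 and 115, and the contrast called 121 and 48 of them.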

How the data were processed

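Total RNA from 4 NSCLC lines was hybridized to 24 Affymetrix human gene arrays, with 3 biological replicates per group by the study's methods. The deposited log2 values were produced by the authors with Affymetrix Power Tools and the Robust Multiarray Average, whose version is not stated. Of 33252 transcript clusters, those with a single gene symbol (19460) were used, and 769 genes with several clusters were read from the cluster with the highest mean. This left 18417 genes.

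limma 3.58.1 in R 4.3.3 was fitted with 1 coefficient for each of the 8 groups, so that all arrays share 1 estimate of each gene's spread. Benjamini-Hochberg adjustment ran over all 18417 genes, and calls needed an adjusted p below 0.05 and a log2 difference of 0.32 or more in size. Genes, lists and categories were chosen with earlier results of these data known, and the lists were written from memory. The genes named were PRKCD, those the study names, the 10 in each direction with the largest smallest cross-class difference, the 3 in each direction with the largest contrast for each driving line, and up to 4 called members of each list. Not every gene so chosen is described. ACSL1, SLC4A4, DUS2 and MRI1 were added after their values were seen. Alternatives varied the spread, weights, scaling, limits, filter, cluster choice and samples. Scripts were tested on simulated data.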

Additional observations from a re-analysis of the deposited data

Results flagged for a closer look

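The response to δ193 differed between groups of lines, by a test of the difference itself in limma, for 857 genes between the classes, 1311 between H2009 and H441 and 853 between A549 and H460. Among genes whose lines agree, the contrast was positive for RELN (0.93), INSIG1 (1.01), SLC16A9 (1.11), AMZ2P1 (0.98), TRPA1 (1.11), PTPN13 (0.91), RNU5A-1 (1.01), DIAPH2 (0.83), HMGN5 (0.73) and IL32 (1.04). It was negative for CYP1B1 (-1.5), EDIL3 (-1.29), ANTXR2 (-0.90), TFF1 (-1.27), TMEM45B (-1), ANPEP (-0.94), ZNF780A (-0.84), ITGA2 (-0.86), BDKRB1 (-1.17) and DMKN (-0.71). These are log2 differences, dependent minus independent lines. Groups of 3 arrays are too small for a test of single outlying arrays.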

How the results depend on the processing

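The class contrast called 888 genes with a trended and robust spread, 817 with array weights per line, 693 by ordinary least squares and 812 with array medians set equal. Over only the genes with a mean above the median it called 730, with the other genes not tested, so this count has a smaller base. It called 793 after quantile normalization, 853 with the mean over clusters, 919 with no fold limit and 859 without small RNA genes, which was chosen after seeing the data. It called 253 genes at a fold of 1.5, 339 at an adjusted p under 0.01, 1365 without the H441 arrays and 530 without the A549 arrays. With the cell line as the unit, the contrast, the genes whose lines agree and those driven by 1 line all came to 0. The methods' t-test gave 189 genes called in both lines of 1 class only, and 5 after Benjamini-Hochberg adjustment. Genes whose lines agree numbered 99 at a fold of 1.5, 113 at an adjusted p under 0.01, 27 with all 4 differences called and 18 with each at least 1.5 fold. Genes driven by 1 line numbered 85 and 130 at those first 2 limits.

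With array weights, calls numbered 958 in H441 and 1699 in H460, 565 for H2009 against H441 and 1865 for A549 against H460. At a fold of 1.5, H2009 had 331, H441 had 814, A549 had 354 and H460 had 388, with 841 for H2009 against H441. At an adjusted p under 0.01 H2009 had 488, H441 had 1716, A549 had 467 and H460 had 555, and the within-class differences 552 and 415. A549 against H460 gave 1634 without H441, and H2009 against H441 gave 777 without H460.

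PRKCD passed with a trended spread (-0.68, adjusted p = 0.0478), weights (-0.68, 0.0183), quantile normalization (-0.73, 0.0478), genes above the median (-0.68, 0.0341), without H441 (-0.61, 0.00482) and without H460 (-1.07, 0.0306). With the replicate number as a block PRKCD was at -0.68 (adjusted p = 0.0291) and 843 genes were called, 728 of them shared. The labels give no shared origin for a number, and 2 of 12 same-numbered pairs correlated over 0.1.

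Leaving out 1 array gave 651 (A549 δ193 replicate 2) to 1134 (H441 δ193 replicate 2) class calls, 158 to 237 genes whose lines agree, 244 to 467 driven by 1 line, 610 to 1211 for A549 against H460 and 852 to 1767 for H2009 against H441. The lines ranged over 573 to 1131 (H2009), 2356 to 3077 (H441), 541 to 1058 (A549) and 628 to 1243 (H460), and PRKCD over -0.82 to -0.49.

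Signs turned without H2009 for LOC151760 (-0.75), SPRR1B (-0.08), AKR1B10 (-0.80) and AKR1C3 (0), and without H441 for ALDH3A1 (0.06) and SQLE (-0.01). They turned without A549 for CES1 (0.39), CDH2 (0.20), CCL2 (-0.27) and HK1 (0.07), and without H460 for TNC (0.31), GABRA5 (-0.25), CDH8 (-0.11), SERPINB4 (0.34), KRT19 (0), F5 (-0.18), AKR1B10 (-0.07) and AKR1C3 (-0.01). The cause of these shifts was not tested beyond the samples left out. With 3 arrays per group and 2 lines per class, precision is limited by their number, and signal over background was not assessed.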
